A study of Homo sapiens with 6 samples.

Results

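Transcripts of the core TGF-beta pathway were compared between CAL-27 sphere cells and parental CAL-27 cells. The genes were 10 in all, chosen by symbol from the 17110 genes of the deposited table: the ligands TGFB1 and TGFB2, the receptors TGFBR1, TGFBR2 and TGFBR3, the SMAD proteins SMAD2, SMAD3, SMAD4 and SMAD7, and SKIL. SKIL is neither a ligand, a receptor nor a SMAD but a co-repressor that binds SMADs. All 10 were found, and each symbol matched its Entrez Gene ID in the human RefSeq table.

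CAL-27 is an established human line of tongue squamous cell carcinoma. Sphere cells were obtained by suspension culture, which served to isolate cancer stem cells per the series' design text, and parental cells were the adherent cells of the same line. Each group had 3 libraries of total RNA, and the labels give no treatment, genetic change, medium or time in culture for either group. The table names the second group Control, which was taken as parental because the series has no other group.

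TGF-beta is secreted in a latent form that is held in the matrix and released by integrins or proteases. The active ligand joins a type II and a type I receptor kinase, which phosphorylate SMAD2 and SMAD3, and these enter the nucleus with SMAD4 to regulate target genes. In squamous epithelium the pathway is known for restraining proliferation, and in carcinoma cells also for promoting the epithelial to mesenchymal transition. SMAD7 and SKIL are themselves targets and limit the signal.

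Values were TPM, a transcript abundance scaled for gene length and to the same total in each library, and the sequencing depth behind them is unknown. In every library 15045 to 15448 genes were listed above 0. Libraries of 1 group were alike (r = 0.995 to 0.997 over tested genes on the log2(TPM + 1) scale) and libraries of different groups less so (r = 0.84 to 0.842), where genes are not independent replicates. The 2 groups differed widely in epithelial markers. All 12 on the squamous epithelial list were tested, and 9 rose and 3 fell in sphere libraries. Of the 9, KRT14 rose most, to 7705 TPM in sphere libraries against 4.69 TPM in parental libraries (log2 difference 10.4). CDH1 rose least, to 236 TPM in sphere libraries against 173 TPM in parental libraries (log2 difference 0.45). Those that fell, EPCAM, KRT8 and KRT18, are not particular to squamous cells. They averaged 160, 496 and 1065 TPM in sphere and 311, 1431 and 1217 TPM in parental libraries. The summed level of the whole list was 32028 to 32303 TPM in sphere and 4195 to 4291 TPM in parental libraries. The summed fibroblast markers came to 15.7 to 17.3 TPM in sphere and 12 to 12.5 TPM in parental libraries, where COL1A1, also on the TGF-beta target list, rose, PDGFRB fell and COL3A1 was listed at 0 in each parental library. Without COL1A1 the sum was 0.49 to 0.65 TPM in sphere and 3.89 to 4.31 TPM in parental libraries. Endothelial markers summed to 10.7 to 12.3 TPM in sphere and 20.9 to 21.9 TPM in parental libraries, where of 2 tested EGFL7 rose and CDH5 fell. PDGFRB and CDH5 passed the expression filter only through parental libraries. Leukocyte markers summed to 180.0 to 186.0 TPM in sphere and 51.6 to 55.9 TPM in parental libraries, mostly CD68, with 1 of 3 tested rising and PTPRC and CD3E listed at 0 in each parental library. The part of these shifts in the results below was not tested. In bulk RNA, fewer cells of a type and less RNA per cell cannot be told apart.

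The core pathway genes moved in both directions in sphere cells, and most moved little. The co-repressor SKIL, the ligand TGFB1 and the signal transducer SMAD2 rose, the co-receptor TGFBR3 and SMAD3, SMAD4 and SMAD7 fell, and the signalling receptors TGFBR1 and TGFBR2 and the ligand TGFB2 did not pass the test. In numbers, 7 of 10 genes passed an adjusted p of 0.05 in limma, 3 higher and 4 lower. Of all 12261 tested genes 83.4% passed, 35.1% higher and 48.2% lower, so the share of pathway genes called was no larger than the background. With median-of-ratios scaling 5166 genes were higher and 5026 lower, where TPM as deposited gave 4309 and 5912, so the balance of rises and falls over all genes depends on the scaling. TGFBR3 passed the expression filter, a mean of at least 1 TPM over all libraries, only through its parental libraries. Its mean thus had to be lower in sphere libraries, though this did not fix the call. In all, 909 tested genes averaged below 1 TPM in 1 of the groups, of which 422 rose, 440 fell and the rest did not pass. Of the other 9 core genes 3 rose and 3 fell. The groups did not overlap for 7 of 10 genes, where the background was 84.6%. A difference of at least 2-fold on the log2(TPM + 1) scale was found for TGFBR3 and SKIL, 2 of 10 genes, against a background of 27.2%, and SKIL is the 1 that is left without TGFBR3. The median difference of the 10 genes was 0.01 on that scale, and that of all tested genes was -0.13.

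**Figure D1:**
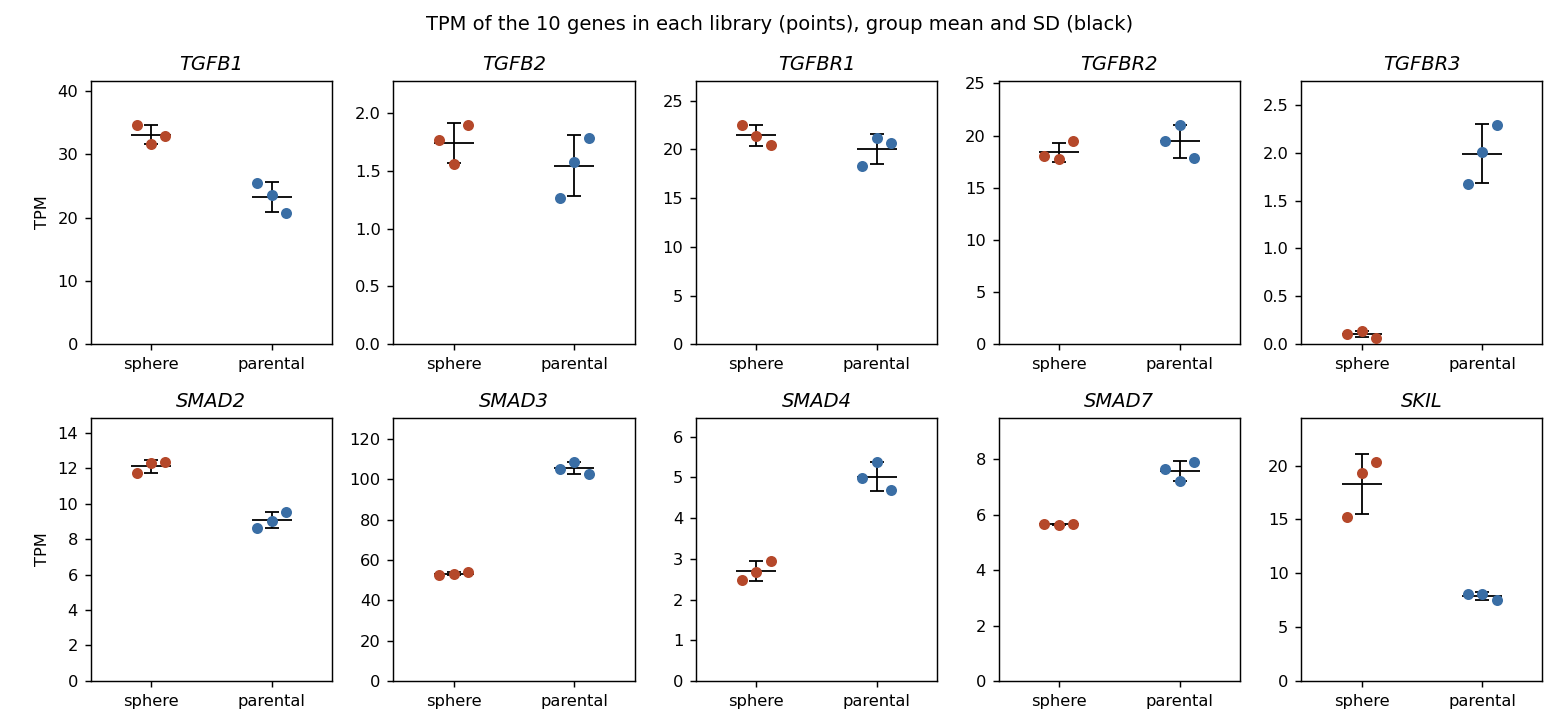
TPM (vertical axes, each from 0) of the 10 genes in sphere (left) and parental (right) libraries. Each point is 1 library, and black lines give the mean and SD of 3 libraries. The points of the groups are apart for TGFB1, TGFBR3, SMAD2, SMAD3, SMAD4, SMAD7 and SKIL and overlap for TGFB2, TGFBR1 and TGFBR2.

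The levels spanned from SMAD3 at 53.1 TPM to TGFBR3 at 0.11 TPM in sphere libraries and from SMAD3 at 105.5 TPM to TGFB2 at 1.55 TPM in parental libraries. The order in sphere libraries was SMAD3, TGFB1, TGFBR1, TGFBR2, SKIL, SMAD2, SMAD7, SMAD4, TGFB2 and TGFBR3. Among neighbours in that order, the ranges of TGFBR2 and SKIL overlapped and all others were apart. The order in parental libraries was SMAD3, TGFB1, TGFBR1, TGFBR2, SMAD2, SKIL, SMAD7, SMAD4, TGFBR3 and TGFB2. There the ranges overlapped between TGFB1 and TGFBR1, TGFBR1 and TGFBR2, SKIL and SMAD7, and TGFBR3 and TGFB2. SMAD3 lay above 77.2% of tested genes in sphere and above 87.5% in parental libraries. SMAD4, the shared partner that SMAD2 and SMAD3 need for most target genes, lay above only 12.1% of tested genes in sphere and 20.3% in parental libraries. These are transcript levels, and whether the cells of either group made working SMAD4 protein was not tested.

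Of the ligands, TGFB1 is the form most widely made by epithelium. It was at 34.65, 31.65 and 32.92 TPM in sphere libraries, against 25.48, 23.58 and 20.67 TPM in parental libraries. Every sphere library was above every parental library. The means were 33.1 ± 1.5 and 23.2 ± 2.4 TPM in sphere and parental libraries (SD, n = 3 each), 1.42-fold higher in sphere libraries, with a log2 difference of 0.50 ± 0.08 (SE) and a limma adjusted p of 0.00015. In GENCODE 29 exons of TGFB1 overlap those of HNRNPUL1 on the opposite strand, and no source used here states whether counting used strand. HNRNPUL1, an RNA-binding protein gene, went the other way, at 110 ± 5.1 TPM in sphere and 231 ± 9.3 TPM in parental libraries, with a log2 difference of -1.06. Exons of SMAD4 overlap a protein-coding gene model and those of TGFB2 a noncoding one, both on the same strand, and exons of SMAD3 overlap an antisense gene. These 3 were not analysed here, and how reads were divided between them and the core genes is uncertain.

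TGFB2, a ligand that depends on betaglycan for efficient receptor binding, was the scarcer form. It was at 1.77, 1.56 and 1.90 TPM in sphere libraries, against 1.27, 1.58 and 1.79 TPM in parental libraries. These ranges overlapped, and the log2 difference of 0.11 had a 95% interval from -0.15 to 0.37 (limma adjusted p = 0.385). The third TGF-beta ligand gene, TGFB3, is given with the pathway lists. As a share of the summed TPM of TGFB1, TGFB2 and TGFB3, TGFB3 came to 4.02 ± 0.46% in sphere and 12.3 ± 0.6% in parental libraries.

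The receptors that carry the signal did not pass. TGFBR1, the type I kinase that phosphorylates SMAD2 and SMAD3, was at 22.52, 21.33 and 20.46 TPM in sphere libraries, against 18.34, 21.15 and 20.71 TPM in parental libraries. The groups overlapped, and the log2 difference was 0.09 with a 95% interval from -0.06 to 0.24 (limma adjusted p = 0.224). TGFBR2, the type II kinase that binds ligand first, was at 18.02, 17.74 and 19.45 TPM in sphere libraries, against 19.49, 21.02 and 17.81 TPM in parental libraries. Its groups overlapped too, and its log2 difference was -0.07 with a 95% interval from -0.23 to 0.09 (limma adjusted p = 0.349). Both differences are small and moved with scaling: with median-of-ratios scaling, which moved the median difference of all tested genes from -0.13 to 0.01, TGFBR1 passed at 0.24 (adjusted p = 0.00872) and TGFBR2 turned to 0.08 without passing (adjusted p = 0.29). The summed TPM of TGFBR1 and TGFBR2 was 39.8 ± 0.7 in sphere and 39.5 ± 2.3 in parental libraries.

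TGFBR3, or betaglycan, is a co-receptor without kinase activity that presents ligand to the type II receptor, and it showed the largest fall of the 10 genes. It was at 0.11, 0.14 and 0.07 TPM in sphere libraries, against 1.67, 2.01 and 2.29 TPM in parental libraries. All sphere values lay far below the lowest parental value, and the group mean was 18.7-fold lower in sphere libraries. The log2 difference was -1.43 ± 0.12 (SE; limma adjusted p = 2e-06), and 15.1% of tested genes had a larger absolute difference. At these low levels the value depends on the pseudocount, and with 0.1 TPM in place of 1 TPM the log2 difference was -3.34. Its share of the summed TPM of the 3 receptor genes was 0.268 ± 0.091% in sphere and 4.80 ± 0.72% in parental libraries.

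**Figure D2:**
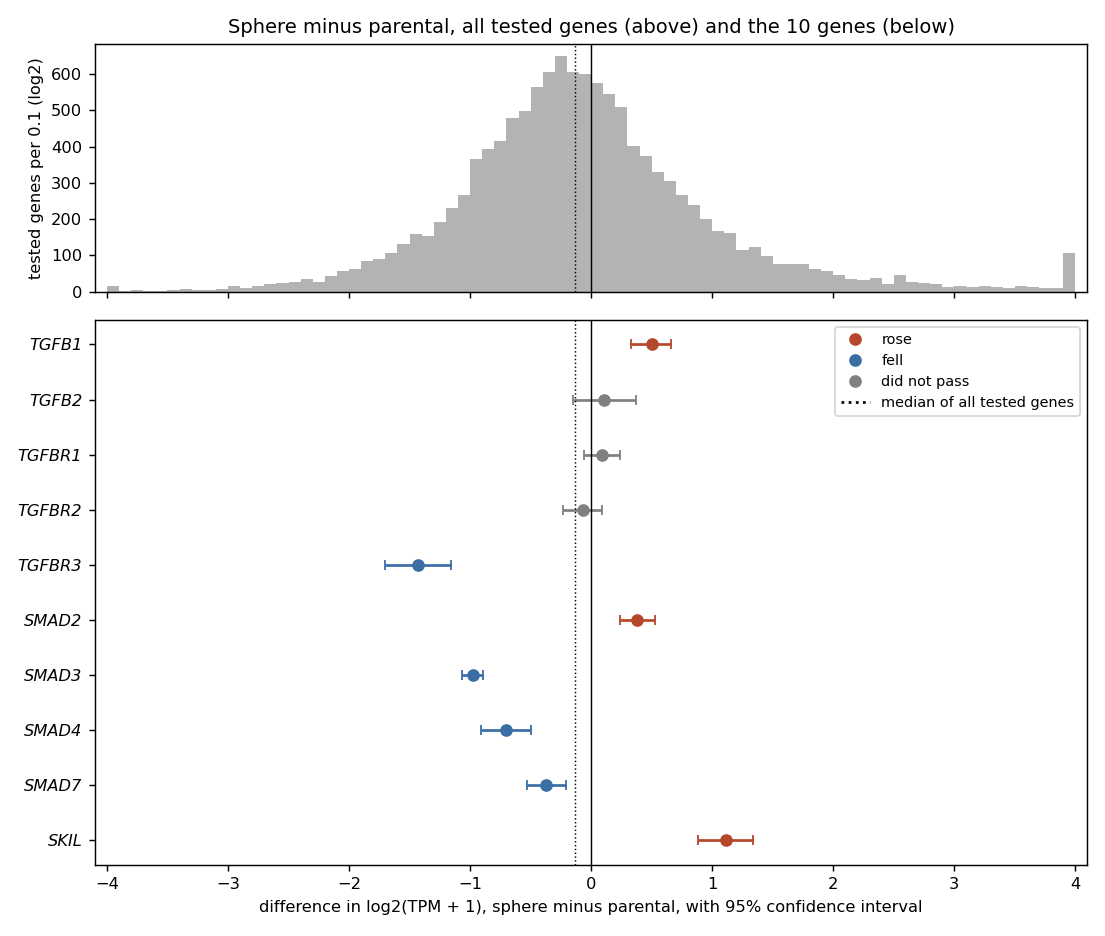
Difference in log2(TPM + 1), sphere minus parental (horizontal axis), as a count of all tested genes per 0.1 (above, with values beyond 4 placed in the end bins) and for the 10 genes with 95% confidence intervals from limma (below). Red, blue and grey mark genes that rose, fell or did not pass. TGFBR3 at -1.43 and SKIL at 1.11 lie farthest out, and the intervals of TGFB2, TGFBR1 and TGFBR2 include 0.

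The receptor-regulated SMADs moved in opposite directions. SMAD2 was at 11.71, 12.30 and 12.38 TPM in sphere libraries, against 8.64, 9.03 and 9.56 TPM in parental libraries. The groups did not overlap, and the mean was 1.34-fold higher in sphere libraries (log2 difference 0.38 ± 0.06 SE, limma adjusted p = 0.00034). SMAD3, the receptor-regulated SMAD that binds DNA directly, was at 52.47, 52.78 and 53.98 TPM in sphere libraries, against 105.27, 108.74 and 102.50 TPM in parental libraries. The values within each group were close together and the groups far apart, with a mean 1.99-fold lower in sphere libraries (log2 difference -0.98 ± 0.04 SE, limma adjusted p = 9.5e-09).

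The fall of SMAD3 outweighed the rise of SMAD2, both in fold and in TPM. Their summed TPM was 65.2 ± 1.1 in sphere and 115.0 ± 2.9 in parental libraries. SMAD3 TPM exceeded SMAD2 TPM 4.38 ± 0.10 times in sphere and 11.6 ± 0.8 times in parental libraries, with single libraries at 4.29 to 4.48 in the sphere group and 10.7 to 12.2 in the parental group. SMAD3 made up 81.4 ± 0.3% of the pair in sphere and 92.1 ± 0.5% in parental libraries. These sums and ratios are given without a test.

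SMAD4 fell together with SMAD3. It was at 2.47, 2.67 and 2.95 TPM in sphere libraries, against 4.99, 5.39 and 4.69 TPM in parental libraries. The groups did not overlap, and the mean was 1.86-fold lower in sphere libraries (log2 difference -0.70 ± 0.09 SE, limma adjusted p = 4.6e-05). Set against its partners, SMAD4 came to 4.13 ± 0.30% of the summed SMAD2 and SMAD3 TPM in sphere and 4.38 ± 0.20% in parental libraries, and the libraries of the groups overlapped in this share.

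**Figure D3:**
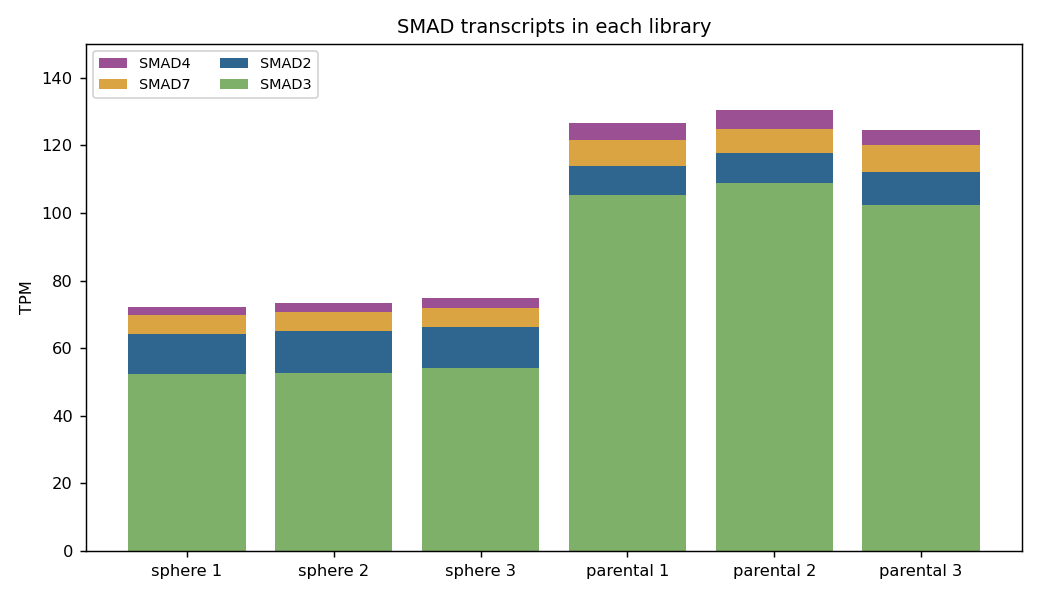
Stacked TPM (vertical axis, from 0) of SMAD3, SMAD2, SMAD7 and SMAD4 in each of the 3 sphere (left) and 3 parental (right) libraries. The stacks reach 73.6 ± 1.3 TPM in sphere and 127.0 ± 2.9 TPM in parental libraries, and SMAD3 is the largest layer in each.

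The inhibitory genes also split. SMAD7, which competes with SMAD2 and SMAD3 at the type I receptor and recruits ubiquitin ligases to it, was at 5.66, 5.63 and 5.66 TPM in sphere libraries, against 7.65, 7.21 and 7.92 TPM in parental libraries. The sphere values were nearly the same as each other and all below the parental values, 1.34-fold lower on average (log2 difference -0.37 ± 0.07 SE, limma adjusted p = 0.00072). SKIL, which encodes SnoN, a co-repressor that binds SMAD complexes on DNA, was at 15.19, 19.33 and 20.38 TPM in sphere libraries, against 8.12, 8.03 and 7.50 TPM in parental libraries. Every sphere value lay above every parental value, with sphere replicate 1 the lowest of its group, and the mean was 2.32-fold higher in sphere libraries (log2 difference 1.11 ± 0.10 SE, limma adjusted p = 3.3e-06). The SKIL TPM over the SMAD7 TPM was 3.24 ± 0.49 in sphere and 1.04 ± 0.09 in parental libraries.

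SMAD7 and SKIL are known targets of SMAD3 and SMAD4, and they moved in opposite directions, so the DNA just before their starts is shown. For each gene the 250 bases before the first start listed in RefSeq (GRCh38.p14) were searched for CAGAC, a 5-base element bound by SMAD3 and SMAD4, on both strands (GTCTG on the printed strand). Of the 10 genes 4 held it, against 37.8% of the 27305 promoters in the table, so it was about as common as in promoters at large. The 4 genes were SMAD7, SKIL, TGFB2 and TGFBR1, of which 1 fell, 1 rose and 2 did not pass. Their windows are chr18:48950966-48951215 on the minus strand, chr3:170357465-170357714 on the plus strand, chr1:218345086-218345335 on the plus strand and chr9:99104863-99105112 on the plus strand. They are printed 5′ to 3′ with the element in capitals.
SMAD7: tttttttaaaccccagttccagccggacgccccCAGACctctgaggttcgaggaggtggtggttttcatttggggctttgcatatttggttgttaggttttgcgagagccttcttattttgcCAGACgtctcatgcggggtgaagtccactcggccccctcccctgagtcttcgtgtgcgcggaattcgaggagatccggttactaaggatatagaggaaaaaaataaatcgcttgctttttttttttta
SKIL: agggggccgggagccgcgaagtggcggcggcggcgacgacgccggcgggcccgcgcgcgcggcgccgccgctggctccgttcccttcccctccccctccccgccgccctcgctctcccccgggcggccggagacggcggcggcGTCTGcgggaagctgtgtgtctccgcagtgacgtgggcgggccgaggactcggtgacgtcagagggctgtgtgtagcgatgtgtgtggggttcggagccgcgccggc
TGFB2: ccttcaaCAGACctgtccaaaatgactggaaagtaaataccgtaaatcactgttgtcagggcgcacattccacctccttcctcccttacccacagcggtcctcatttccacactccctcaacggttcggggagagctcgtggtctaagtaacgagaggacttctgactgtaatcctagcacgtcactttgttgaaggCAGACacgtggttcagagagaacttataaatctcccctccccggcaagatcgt
TGFBR1: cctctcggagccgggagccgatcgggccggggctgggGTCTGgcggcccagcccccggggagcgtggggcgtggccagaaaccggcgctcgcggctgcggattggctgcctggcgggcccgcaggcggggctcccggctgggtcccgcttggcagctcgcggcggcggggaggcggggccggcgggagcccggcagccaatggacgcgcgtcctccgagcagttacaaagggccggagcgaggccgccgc

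In SMAD7 the elements began 217 and 128 bases before the start, in SKIL 107, in TGFB2 243 and 53, and in TGFBR1 213 bases before it. The windows differed in composition, with a GC content of 48.0% for SMAD7, 78.4% for SKIL, 50.4% for TGFB2 and 79.6% for TGFBR1, where the median over all promoters was 58.0%. The palindrome GTCTAGAC, in which the core bases of the element face each other, was in none of the 10 windows and in 0.176% of all promoters. The AP-1 element TGANTCA, whose factors cooperate with SMADs, was in none of the 10. It was in 6.6% of all promoters and in 4.13% of those of tested genes. At such shares its absence from 10 windows says little. A match of letters does not show binding. Other starts are listed for 5 of the 10 genes, and the windows before those starts were not searched. An element absent here may thus lie near another start.

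The rest of the pathway was read from 7 lists of 86 genes, of which 67 were tested, 36 rose, 20 fell and 11 did not pass. The 56 called genes are 83.6% of those tested, close to the 83.4% of all tested genes, where 35.1% were higher and 48.2% lower. These shares are the background for each list count that follows. The median log2 difference of the 67 genes was 0.29, and that of all tested genes was -0.13. Of the counted genes INHBB, BAMBI and MMP9 passed the filter only through sphere libraries and ZEB2 only through parental libraries. The filter thus fixed the direction of these 4, though not the call.

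Among the other ligands, 2 of 4 tested genes rose, INHBB among them, and 2 fell (median 0.26), and the change in INHBA was far larger than that of any of the 10 core genes. INHBA, the subunit of activin A, which signals through SMAD2 and SMAD3 by its own receptors, was at 587.7, 627.68 and 661.33 TPM in sphere libraries, against 7.81, 7.27 and 7.35 TPM in parental libraries (log2 difference 6.21 ± 0.05 SE, limma adjusted p = 3.4e-13). GDF11, a related ligand, fell to 4.73 ± 0.35 TPM in sphere libraries, against 16.9 ± 2.4 TPM in parental libraries. TGFB3, named outside the rule because it completes the TGF-beta ligands, fell to 1.46 ± 0.20 TPM in sphere libraries, against 3.49 ± 0.47 TPM in parental libraries.

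In the list for ligand storage and activation 10 of 12 tested genes rose and 1 fell (median 1.13), where 35.1% of all tested genes rose and 48.2% fell. The 10 include FST and FSTL3, activin traps that neither store nor activate TGF-beta. FST, follistatin, which traps activins, was at 138 ± 6.8 TPM in sphere and 4.53 ± 0.13 TPM in parental libraries. ITGB8, the subunit of an integrin that activates latent TGF-beta, was at 52.8 ± 5.6 TPM in sphere and 8.04 ± 0.51 TPM in parental libraries. LTBP2, a matrix protein related to the latent TGF-beta binding proteins, was at 15.4 ± 0.4 TPM in sphere and 2.58 ± 0.27 TPM in parental libraries. LTBP1, which anchors latent TGF-beta in the matrix, was the gene that fell, at 4.78 ± 0.08 TPM in sphere and 8.34 ± 0.22 TPM in parental libraries. FSTL3, a second activin trap named after its values were seen, rose to 46.0 ± 1.1 TPM in sphere libraries, against 10.7 ± 0.7 TPM in parental libraries.

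**Figure D4:**
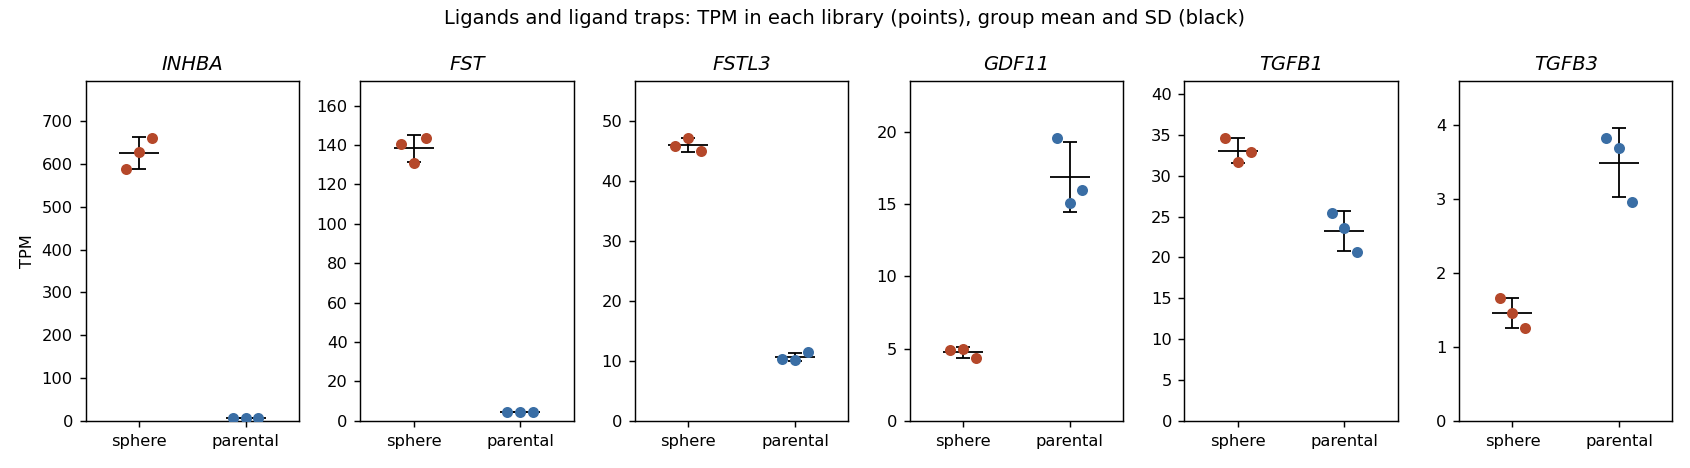
TPM (vertical axes, each from 0) of 4 ligand genes (INHBA, GDF11, TGFB1 and TGFB3) and 2 activin traps (FST and FSTL3) in sphere (left) and parental (right) libraries. Each point is 1 library, and black lines give the mean and SD of 3 libraries. INHBA, FST, FSTL3 and TGFB1 are higher and GDF11 and TGFB3 lower in sphere libraries, with no overlap of the groups.

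Of the other receptors, 3 of 5 tested rose and 1 fell (median 0.45). The rise of CD109, a membrane protein that binds TGF-beta and dampens its receptor, was to 67.8 ± 4.0 TPM in sphere libraries, against 29.8 ± 1.2 TPM in parental libraries. Of the other SMADs, SMAD1 and SMAD5 of the BMP branch were tested and neither passed, with log2 differences of -0.09 (adjusted p = 0.288) and 0.08 (adjusted p = 0.253), although SMAD5 passed with median-of-ratios scaling. The inhibitory SMAD6 was below the filter, at 0.07, 0.05 and 0.07 TPM in sphere libraries, against 1.70, 1.29 and 1 TPM in parental libraries. Without the filter SMAD6 was lower in sphere libraries with an adjusted p of 6.5e-05 in limma.

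The inhibitors and feedback genes were divided like SMAD7 and SKIL, with 5 of 13 tested rising and 5 falling (median 0.07). PMEPA1, a TGF-beta target that sequesters SMAD2 and SMAD3, rose to 64.7 ± 2.8 TPM in sphere libraries, against 18.1 ± 0.8 TPM in parental libraries. The ubiquitin ligase SMURF1, a partner of SMAD7, rose to 68.6 ± 3.6 TPM in sphere libraries, against 20.7 ± 1.1 TPM in parental libraries. The related ligase SMURF2 fell to 24.1 ± 0.6 TPM in sphere libraries, against 33.4 ± 1.7 TPM in parental libraries. The ligase NEDD4L fell to 14.7 ± 0.1 TPM in sphere libraries, against 30.6 ± 0.3 TPM in parental libraries. The co-repressors TGIF1 and TGIF2 moved apart, with log2 differences of 0.88 and -1.04.

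Of the SMAD cofactors and positive regulators 3 of 9 tested rose and 3 fell (median -0.03). USP15, a deubiquitinase that opposes SMAD7 at the type I receptor, fell to 22.5 ± 1.6 TPM in sphere libraries, against 49.5 ± 3.7 TPM in parental libraries. ZFYVE9, which brings SMAD2 and SMAD3 to the receptor, rose to 22.7 ± 0.3 TPM in sphere libraries, against 15.6 ± 0.5 TPM in parental libraries. The others differed little, with log2 differences of 0.27 for USP11, -0.31 for USP4, 0.13 for EP300 and -0.33 for CREBBP, the last 2 being acetyltransferases that act with SMADs. The call of EP300 was lost without sphere replicate 1, sphere replicate 3 or parental replicate 3 (adjusted p = 0.0545, 0.0722 and 0.0639) and that of USP4 with median-of-ratios scaling (adjusted p = 0.10).

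Among genes that TGF-beta is known to induce in various cells, 13 of 22 tested rose and 8 fell (median 1.06), against the same 35.1% and 48.2% of all tested genes, and 12 and 7 of 20 without MMP9 and ZEB2. Many of them also answer to other signals, and how much of their level follows TGF-beta was not tested. PTHLH, a parathyroid hormone-related peptide, was at 138 ± 2.9 TPM in sphere and 17.2 ± 0.7 TPM in parental libraries. CDKN1A, a cyclin-dependent kinase inhibitor of the TGF-beta arrest programme, was at 332 ± 12.6 TPM in sphere and 50.0 ± 3.8 TPM in parental libraries. SNAI1, a transcription factor of the epithelial to mesenchymal transition, fell to 2.01 ± 0.36 TPM in sphere libraries, against 7.83 ± 1.36 TPM in parental libraries. Its relative SNAI2, named after its values were seen, went the other way. SNAI2 rose to 83.2 ± 2.1 TPM in sphere libraries, against 13.6 ± 1.1 TPM in parental libraries. Of further such factors on the list, ZEB2 fell and ZEB1 was below the filter. The matrix genes COL4A1 and TNC fell with log2 differences of -2.17 and -1.90. CCN2, connective tissue growth factor, named after its values were seen, fell to 9.02 ± 0.35 TPM in sphere libraries, against 15.6 ± 1.1 TPM in parental libraries.

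**Figure D5:**
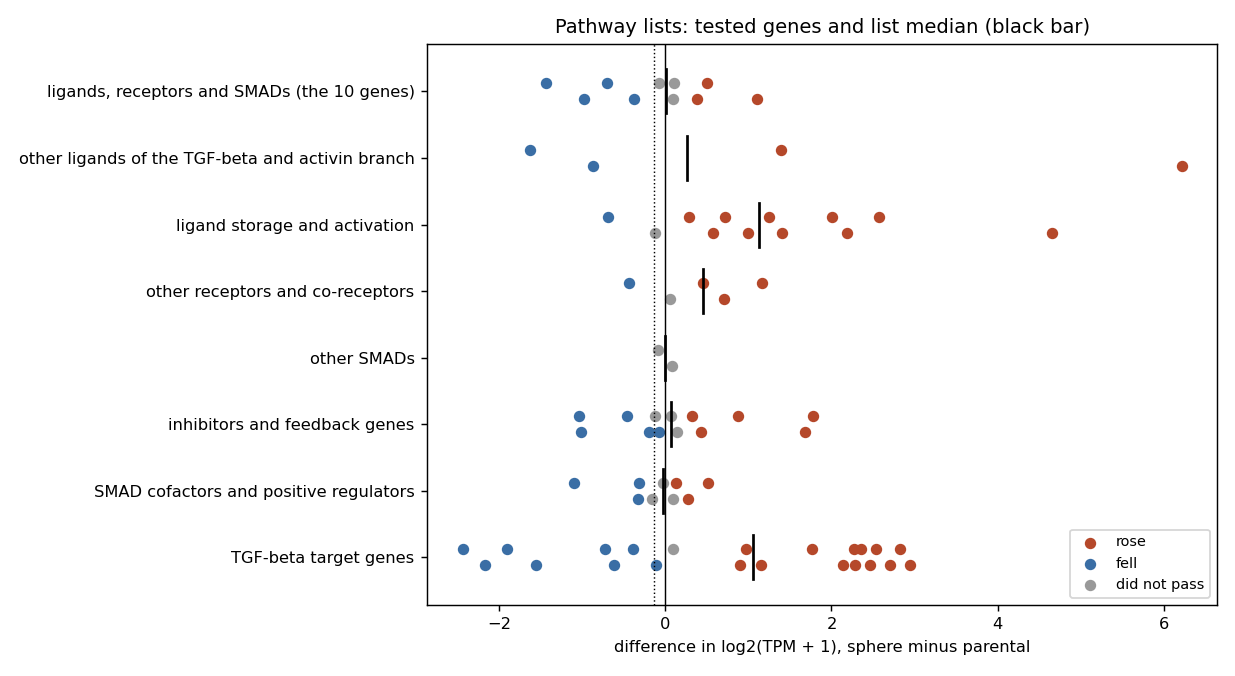
Difference in log2(TPM + 1), sphere minus parental (horizontal axis), of each tested gene of the 10 core genes and the 7 other pathway lists. Points are genes, black bars list medians and the dotted line the median of all tested genes, -0.13. The core genes lie on both sides of 0 with a median of 0.01, while INHBA at 6.21 and FST at 4.65 stand farthest to the right.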

How the data were processed

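RNA-seq of total RNA from 3 sphere and 3 parental CAL-27 libraries was done on a BGISEQ-500 with single-end reads of 50 bases, per the labels' protocols. The authors deposited TPM for 17110 genes, to 2 decimals, per the file headers. HISAT, Bowtie2 (no versions) and the mouse build GRCm38.p6 stand in the submitters' processing notes. Of the Entrez Gene IDs, however, 17052 matched human RefSeq GRCh38.p14, so the build used is unclear. The promoter coordinates and the gene order given here are those of RefSeq GRCh38.p14, not of the build behind the TPM. The counter, the annotation and the handling of strand were not stated in the sources used here.

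A mean of at least 1 TPM over the 6 libraries left 12261 genes, whose log2(TPM + 1) values were fitted in R 4.3.3 by limma 3.58.1 (eBayes with a trend, 4 residual degrees of freedom), two-sided, with Benjamini-Hochberg adjustment over all of them. The fit was tested on simulated data. Differences on this scale understate changes of low genes. All 10 core genes passed the filter. Nothing in the labels says that the replicates came from separate cultures. The p-values therefore rest on a spread among libraries that may be technical only. Core genes and lists were chosen with earlier results of these data known. From each other list up to 3 largest rises and 3 largest falls were named, among genes past the threshold with groups apart and at least 5 TPM in the higher group. A gene that this rule takes is not reported here. Promoters came from RefSeq (GRCh38.p14), where all 10 genes matched, and were read with Python 3.11.15. Alternatives changed the pseudocount (0.1 TPM), the filter (none, or a mean of 5 TPM), the scaling (median of ratios), the variance model (robust, untrended or weighted by array), the pairing (a replicate block) or the libraries (each left out in turn).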

Additional observations from a re-analysis of the deposited data

How the results depend on the processing

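Calls and directions of the 10 core genes held in all 14 alternatives that could be run for each, except for TGFBR1 and TGFBR2. With median-of-ratios scaling TGFBR1 passed at a log2 difference of 0.24 and TGFBR2, uncalled in either, turned from -0.07 to 0.08 (adjusted p = 0.29). A mean of at least 5 TPM removed TGFB2, TGFBR3 and SMAD4 from testing, which left 2 core genes lower, 2 genes called among the other ligands and 1 among the other receptors. Among the other SMADs 1 gene passed with no filter (SMAD6) and 1 with median-of-ratios scaling (SMAD5). Over 35 named genes and all alternatives, 480 of 486 calls were on the same side and in the same direction. Core genes past the threshold numbered 7 whichever library was left out, and the called genes in all 9826 to 10047 (10221 with all 6). With the replicate number as a block 7 core genes passed and 10192 genes in all, and no core call changed. Deviations of same-numbered libraries correlated at 0.018, -0.018 and -0.055, so the numbers showed no pairing. TPM keeps no depth, which limits what can be said of TGFBR3 and TGFB2 at their low levels.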

Other observations

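The genes beside each core gene on its chromosome were also read, since neighbours can shift together. Of the 20 tested neighbours of SKIL on chromosome 3, from PDCD10 to TBL1XR1, 5 rose and 10 fell, and their median log2 difference was -0.19 where SKIL was at 1.11. Around SMAD3 on chromosome 15, from INTS14 to ANP32A, 6 rose and 10 fell, with a median of -0.20 where SMAD3 was at -0.98. Around TGFBR3 on chromosome 1, from GBP3 to MTF2, 6 rose and 12 fell, with a median of -0.25 where TGFBR3 was at -1.43. Around TGFB1 on chromosome 19, from COQ8B to ARHGEF1, 6 rose and 13 fell, with a median of -0.29 where TGFB1 was at 0.50.

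SMAD2, SMAD7 and SMAD4 all lie on chromosome 18, whose 166 tested genes had a median log2 difference of 0.07. Their sets of neighbours overlap along the chromosome and are not separate comparisons. The neighbours of SMAD2 had a median of 0.16, those of SMAD7 0.26 and those of SMAD4 -0.09. SMAD7 at -0.37 and SMAD4 at -0.70 thus lay below their neighbours' medians and SMAD2 at 0.38 above. Over the 10 core genes the neighbours' medians ranged from -0.38 to 0.26. These values are a description with no test.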
